A study of Mus musculus with 8 samples.

Results

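The regions described here are 2607 wide stretches of acetylated chromatin that were listed in differentiating Oli-neu cells, lay away from promoters, and had no overlapping region in the list from proliferating cells. They were chosen by 3 measured properties of the deposited H3K27ac peak lists: a width of at least 1200 bp, no base shared with a peak of the proliferating list, and no base shared with a promoter, taken as 3000 bp upstream to 100 bp downstream of the annotated start of a protein-coding gene. The differentiating list held 27965 peaks, of which 5981 were at least 1200 bp wide, 4411 of these lay outside promoters, and 2607 of those had no counterpart, 9.32% of the list, covering 3.93 Mb. Because width and overlap selected the regions, the values that the peak caller gave them are descriptions, with no test.

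Oli-neu is a line of mouse oligodendrocyte-lineage cells, labelled as embryonic oligodendrocyte progenitor cells of strain C57BL/6. Chromatin immunoprecipitation with sequencing (ChIP-seq) against H3K27ac was done on 1 library of proliferating cells, kept in medium with bFGF at 10 ng/ml, Pdgf-BB at 1 ng/ml, T3 at 340 ng/ml and L-thyroxine at 400 ng/ml, and on 1 library of differentiating cells. The differentiating cells had spent 1 day without growth factors in the presence of the erb inhibitor PD174265 at 1 μM. Removal of growth factors, the inhibitor and time in culture therefore cannot be told apart, and with 1 library of 1 cell line per state no difference between the states has a replicate check. The 3 siCtrl and 3 siPadi2 accessibility libraries of the same series were not analysed here.

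Acetylation of lysine 27 on histone H3 is deposited by the CBP and p300 acetyltransferases at active promoters and enhancers. Wide acetylated domains away from start sites usually contain enhancers, sequences that raise the transcription of a gene which can lie far away and need not be the nearest. In the oligodendrocyte lineage, such elements are bound by factors such as SOX10, OLIG2 and MYRF, and many are known to gain or lose acetylation when precursors stop dividing and begin to make myelin.

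Peaks at marker genes were checked against the labelled cell type, with mixed results. Sox10, Olig1 and Olig2, which define the oligodendrocyte lineage, had a promoter peak in both states. The precursor markers Pdgfra and Cspg4 had none in either list, although they had 2 and 3 peaks within the gene in proliferating cells and 2 and 5 in differentiating cells, and the myelin gene Mbp had no promoter peak but 2 and 4 peaks within the gene. A peak in the promoter or gene was present in proliferating and differentiating cells at 14 and 15 of 18 precursor genes, 6 and 5 of 8 astrocyte genes, 4 and 5 of 11 neuronal genes and 2 and 2 of 8 microglial genes. Promoter peaks were present at 5 and 8 of the precursor genes, 4 and 2 of the astrocyte genes, 1 and 1 of the neuronal genes and 0 and 0 of the microglial genes. Gfap and Aqp4 of astrocytes, Aif1 of microglia and Tubb3 of neurons had no peak in either list, whereas Gja1 and Slc1a3 of the astrocyte list had a promoter peak in proliferating cells. These promoter calls used 1 annotated start per gene, so an absent promoter peak can depend on the start chosen. A differentiating peak within Pdgfra fell in a promoter when the starts of all transcripts were counted. The part of other cell types in the regions was not tested.

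The central 300 bp of 6 regions are printed to show the kind of sequence involved: the 4 of highest fold enrichment whose window was outside exons and whose region had under 50% repeat-masked bases, and 1 each from Myrf and Cspg4, picked after their values had been seen because these genes mark the differentiating oligodendrocyte and its precursor. Sequence is the plus strand of GRCm38/mm10 from RefSeq, and capitals mark letters that match any of 11 short motifs on either strand: SOX (ACAANG), E-box (CAGCTG), NFI half-site (TGCCAA), AP-1 (TGANTCA), TEAD (ACATTCC), FOX (GTAAACA), ETS (CCGGAAG), nuclear receptor half-site (AGGTCA), CRE (TGACGTCA), TCF/LEF (ATCAAAG) and RUNX (TGTGGTT).
Upstream of Col22a1, chr15:72072950-72073249: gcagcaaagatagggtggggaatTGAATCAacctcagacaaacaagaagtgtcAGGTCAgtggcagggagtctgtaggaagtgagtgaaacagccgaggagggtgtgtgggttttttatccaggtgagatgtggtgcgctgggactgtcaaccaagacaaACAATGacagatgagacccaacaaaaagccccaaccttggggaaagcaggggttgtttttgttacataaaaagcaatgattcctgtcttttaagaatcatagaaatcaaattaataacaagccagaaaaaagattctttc
Upstream of Cdh20, chr1:104652565-104652864: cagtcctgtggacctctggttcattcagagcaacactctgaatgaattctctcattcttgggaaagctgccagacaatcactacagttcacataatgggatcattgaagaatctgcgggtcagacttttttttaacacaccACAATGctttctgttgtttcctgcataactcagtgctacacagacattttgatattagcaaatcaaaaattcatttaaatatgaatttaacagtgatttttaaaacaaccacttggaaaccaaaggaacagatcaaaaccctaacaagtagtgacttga
Dscam intron, chr16:96728554-96728853: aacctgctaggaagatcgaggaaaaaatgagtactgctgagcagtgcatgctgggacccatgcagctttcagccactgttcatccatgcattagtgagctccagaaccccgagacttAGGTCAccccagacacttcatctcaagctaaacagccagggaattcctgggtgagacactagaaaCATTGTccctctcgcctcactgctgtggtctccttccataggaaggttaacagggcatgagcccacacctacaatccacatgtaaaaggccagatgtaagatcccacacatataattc
Cdh1 intron, chr8:106619341-106619640: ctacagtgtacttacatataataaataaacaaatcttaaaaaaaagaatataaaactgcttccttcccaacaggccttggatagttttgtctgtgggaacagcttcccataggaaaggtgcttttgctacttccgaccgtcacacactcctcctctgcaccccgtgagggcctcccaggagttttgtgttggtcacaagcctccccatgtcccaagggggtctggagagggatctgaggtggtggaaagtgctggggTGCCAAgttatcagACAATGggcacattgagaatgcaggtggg
Myrf intron, chr19:10232599-10232898: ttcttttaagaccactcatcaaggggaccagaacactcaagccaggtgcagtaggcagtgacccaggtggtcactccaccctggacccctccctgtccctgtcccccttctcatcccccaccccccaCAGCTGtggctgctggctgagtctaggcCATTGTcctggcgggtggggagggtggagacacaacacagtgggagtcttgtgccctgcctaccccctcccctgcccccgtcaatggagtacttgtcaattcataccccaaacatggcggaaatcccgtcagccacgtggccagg
Cspg4 gene, chr9:56900654-56900953: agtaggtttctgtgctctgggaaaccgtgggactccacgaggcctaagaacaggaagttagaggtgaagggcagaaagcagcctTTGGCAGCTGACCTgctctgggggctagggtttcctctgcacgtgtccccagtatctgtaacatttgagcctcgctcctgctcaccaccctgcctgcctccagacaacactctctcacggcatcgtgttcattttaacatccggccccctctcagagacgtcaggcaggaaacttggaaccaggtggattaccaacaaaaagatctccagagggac

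A SOX match was present in 5 of these 6 windows, the Cspg4 window being the exception. Such a match was found in 50.2% of the 2607 regions and in 45.9% of all differentiating peaks. With 6 picked windows, whether SOX matches are enriched cannot be judged. The Col22a1 window also held an AP-1 match and a nuclear receptor half-site, the Dscam window a nuclear receptor half-site, the Cdh1 window an NFI half-site and the Myrf window an E-box. In the Cspg4 window an E-box overlapped an NFI half-site on one side and a nuclear receptor half-site on the other, in 1 run of capitals. GC content of the 6 windows ranged from 37% at Cdh20 to 60.7% at Myrf.

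By the peak caller's values the regions were weak members of their list. Fold enrichment over the caller's background had a median of 2.99 and ran from 1.95 to 4.71, against a median of 3.13 and a highest value of 16.3 over all differentiating peaks. The significance value −log10 q, where q is the caller's p-value adjusted over the genome, had a median of 1.63 and a highest value of 5.82, while the list as a whole had a median of 1.89 and reached 528. Only 28.6% of the regions exceeded the list's median −log10 q. Of the 2607, 86.8% had a q of at most 0.05, 22.7% had a q of at most 0.01, and 8 (0.307%) reached a −log10 q of 5. Over all differentiating peaks these shares were 88.5%, 44.8% and 5.73%. The paper states a q cutoff of 0.05 for calling these peaks. By the values read here the remaining peaks missed it, both among the regions and in the list as a whole. The 1804 wide distal differentiating peaks that did have a counterpart had a median −log10 q of 2.7, and 13.7% of them reached 5.

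The absence of a counterpart went together with low significance. Among the 4411 wide distal differentiating peaks 59.1% had none, a share that was 53.8% for the 3636 wide distal proliferating peaks and 69.9% for differentiating peaks of any width and place. When the 4411 were ordered by −log10 q and divided into 4 sets of equal size, the share without a counterpart was 88.1% in the weakest set (95% exact Clopper-Pearson interval 86.1 to 90), then 79%, then 54.1%, and 15.2% in the strongest (13.2 to 17.5). The intervals in this text cover counting error only, and regions of 1 library are not replicates. Width was part of the rule, and a wider peak has more bases that can meet a proliferating peak. Of wide distal peaks of 1200 to 1399 bp 74.4% had no counterpart, 56.5% at 1400 to 1599 bp, 44.6% at 1600 to 1999 bp, 38.5% at 2000 to 2999 bp and 31.2% (20 of 64) at 3000 bp or more. The paper reports more uniquely mapped reads for the differentiating library than for the proliferating one. Sequencing depth per region was not given in the lists, and the part of depth in these shares was not tested.

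Reversing the rule gave a comparable set in proliferating cells. There, 1956 wide distal peaks had no counterpart in the differentiating list, with a median width of 1356 bp against 1375 bp, a median fold enrichment of 3.18 against 2.99 and a median −log10 q of 1.7 against 1.63. The median distance from a region without a counterpart to the closest peak of the other list was 13748 bp for the differentiating regions and 14526 bp for the proliferating ones. Of the differentiating regions, 166 (6.37%) had a proliferating peak within 1 kb and 1056 (40.5%) within 10 kb.

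**Figure D1:**
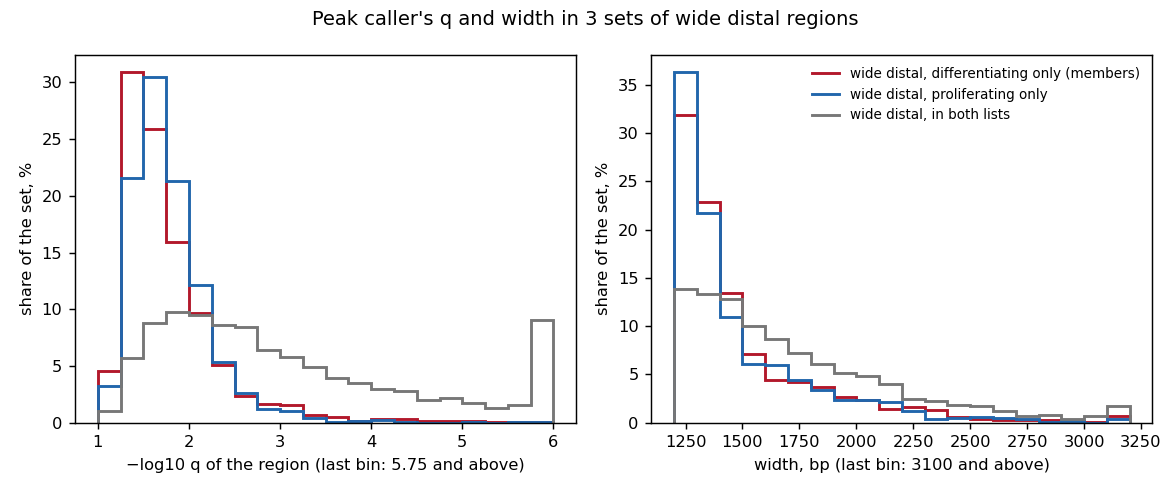
Distribution of −log10 q (left) and width in bp (right) as the percent of each set, for the 2607 wide distal differentiating-only regions (red), the 1956 wide distal proliferating-only regions (blue) and the 1804 wide distal differentiating peaks with a counterpart (grey); the last bins hold all higher values. The red and blue lines lie close together with medians of 1.63 and 1.7 for −log10 q, while the grey line, with a median of 2.7, is spread to higher values.

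The 3 peaks listed just below the width threshold had higher fold enrichments than the 3 regions listed at it. So few peaks cannot show how the values change there. The 3 narrowest regions kept were 1200 bp wide and lay within Shisa8, 64434 bp upstream of Khdrbs2 and 293528 bp upstream of Cdh6, with fold enrichments of 2.67, 2.81 and 2.89. The 3 widest peaks that failed only on width were 1199 bp wide, had Spag4, Ica1 and Ankrd33 as their nearest genes, and had fold enrichments of 3.33, 3.18 and 3.15. Another 2113 peaks of 1000 to 1199 bp met the remaining criteria.

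The 10 regions of highest fold enrichment were spread over 8 chromosomes. The highest, chr15:72072489-72073711, was an intergenic region 38873 bp upstream of Col22a1, a collagen gene, with a fold enrichment of 4.71 and a −log10 q of 5.46. Next came an intron of Tmem51 at chr4:142057698-142059170 (4.67), an intergenic region nearest to Pabpc2 at chr18:39867307-39868561 (4.52) and a region 115814 bp upstream of Cdh20, a cadherin of cell-cell adhesion, at chr1:104651745-104653684 (4.47). The nearest proliferating peak was 33457 bp from the Cdh20 region and 4110 bp from the Tmem51 region. Of the bases of the Tmem51 region 62.6% were repeat-masked.

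The other 6 were within Mgat4a at chr1:37448537-37449784 (4.45), Dscam at chr16:96728046-96729362 (4.42), Cdh1 at chr8:106618860-106620122 (4.41), Acsl3 at chr1:78676504-78677906 (4.27) and Acsl6 at chr11:54324838-54326148 (4.23), and 9612 bp upstream of Slc13a3 at chr2:165482142-165483541 (4.19). Mgat4a encodes an enzyme that branches N-glycans, Dscam an adhesion molecule of the nervous system and Cdh1 E-cadherin. Acsl3 and Acsl6 encode acyl-CoA synthetases, which activate long-chain fatty acids for lipid synthesis, and Slc13a3 a dicarboxylate transporter. The regions in Cdh1 and Acsl3 had a proliferating peak at a distance of 1698 bp and 1915 bp, while for Acsl6 the nearest was 82924 bp away.

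Width and enrichment picked different regions. The widest measured 3831 bp, at chr10:86386822-86390652 in an intron of Syn3, the gene of a synaptic vesicle protein, with Timp3 as the nearest start. It was followed by 3662 bp in Zfyve28, 3557 bp upstream of Plppr1, 3539 bp at 81489 bp upstream of Hgf, the hepatocyte growth factor gene, and 3446 bp in Dnmbp. Their fold enrichments of 3.12, 2.22, 2.82, 2.03 and 3.19 were all below those of the 10 regions above, and their −log10 q values ran from 1.27 to 1.84. Most regions were much narrower: 1427 of the 2607 (54.7%) measured under 1400 bp and 20 measured 3000 bp or more.

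The regions were far from start sites and mostly in introns or between genes. The distance from the centre to the nearest protein-coding start had a median of 52796 bp, from 764 to 2380565 bp, and was within 10 kb for 331 regions (12.7%) and within 100 kb for 1726 (66.2%). Introns of protein-coding genes held 956 regions (36.7%) and intergenic sequence 1010 (38.7%). A coding exon was touched by 334 (12.8%), another exon of a protein-coding gene by 111 (4.26%), and 196 (7.52%) lay in genes of other types, 120 of them lincRNA genes.

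Placement differed from that of peaks found in both states. Wide distal differentiating peaks with a counterpart had a median distance of 33242 bp, and 12.1% of them were within 5 kb of a start, compared with 4.56% of the regions (3.8 to 5.44). The proliferating-only regions had a median distance of 56309 bp and 4.4% within 5 kb. Within protein-coding genes lay 53.7% of the regions (51.8 to 55.7), 48.5% of the proliferating-only regions (46.3 to 50.8) and 58% of the peaks with a counterpart (55.7 to 60.3). The share of the regions was 50.1% when the starts of all transcripts defined the promoters. The proliferating-only share was not recomputed with those starts, so whether the distance between them depends on that choice was not tested. Introns alone held 36.7%, 31.9% and 29.9% of the 3 sets.

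**Figure D2:**
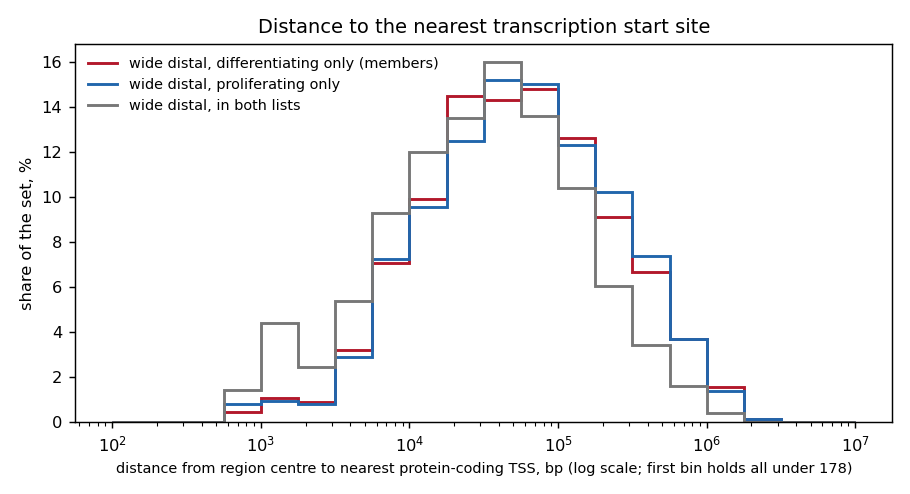
Distance from the region centre to the nearest protein-coding transcription start site in bp, on a log scale, as the percent of each set (red, differentiating only; blue, proliferating only; grey, differentiating peaks with a counterpart). The red and blue distributions run together with medians of 52796 and 56309 bp, and the grey one is shifted to shorter distances with a median of 33242 bp.

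Composition followed the same division. Median GC content was 44% in the regions, 44.2% in the proliferating-only regions and 49.5% in peaks with a counterpart, the ratio of observed to expected CpG was 0.18, 0.176 and 0.237, and the median share of repeat-masked bases was 19.1%, 19.5% and 13.3%. In 250 regions (9.59%) at least 50% of the bases were repeat-masked. The share was 9.56% in the proliferating-only regions, 9.86% in all differentiating peaks and 2.61% in the peaks with a counterpart.

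Of the 11 motifs, the E-box showed the widest gap between the regions and the peaks with a counterpart. The sequence CAGCTG, read by basic helix-loop-helix factors, was found in 14.7% of the regions (13.3 to 16.1), 12.9% of the proliferating-only regions, 25.3% of the peaks with a counterpart (23.3 to 27.4) and 15.9% of all differentiating peaks. SOX matches were present in 50.2%, 49.6%, 51% and 45.9% in the same order. NFI half-sites were found in 16%, 15.9%, 15.5% and 14.3%, and nuclear receptor half-sites in 17.1%, 17.3%, 15.1% and 15.3%.

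The less frequent motifs gave the following shares for the regions, with all differentiating peaks in parentheses: AP-1 8.21% (8.02%), RUNX 6.52% (5.55%), TCF/LEF 5.56% (4.43%), FOX 4.41% (3.53%), TEAD 4.1% (3.67%) and ETS 1.23% (3.69%). The CRE letters TGACGTCA were found in 0 of 2607 regions, which allows a share of up to 0.115%, against 0.572% of all differentiating peaks, promoters included. Of the peaks with a counterpart, 2.77% held an ETS match (2.06 to 3.64), and the interval of the regions (0.841 to 1.73) lay below it. ETS and CRE matches were also rarer in the regions than in the list as a whole, which is richer in GC with a median of 47.5%. Whether GC content accounts for the motif shares was not tested.

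**Figure D3:**
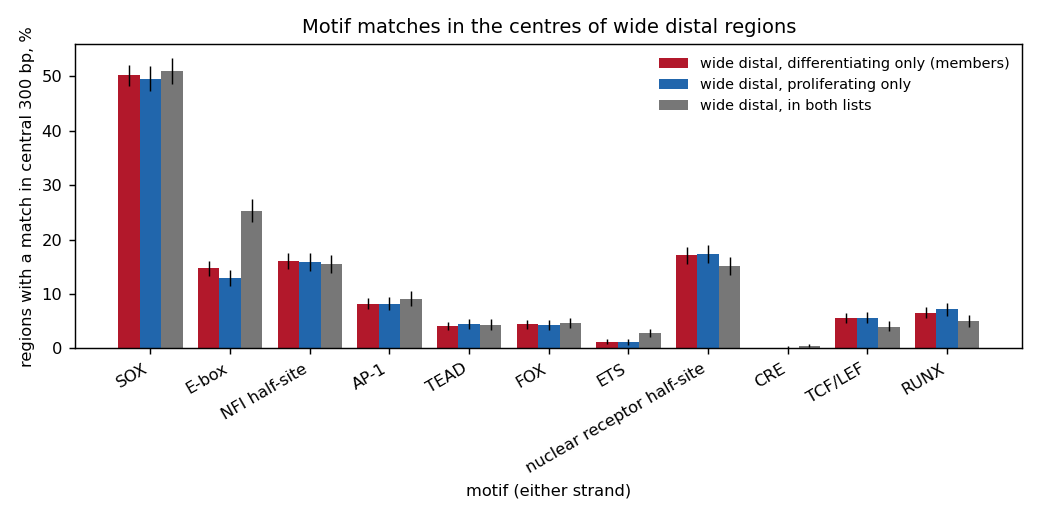
Percent of regions with at least 1 match to each motif on either strand in the central 300 bp, for differentiating-only regions (red), proliferating-only regions (blue) and differentiating peaks with a counterpart (grey); error bars are 95% exact Clopper-Pearson intervals. The E-box stands out with 25.3% in the grey set against 14.7% in the red and 12.9% in the blue set, while SOX matches lie between 49.6% and 51%.

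The regions were spread unevenly over the chromosomes. Chromosomes 1, 10 and 15 held 1160 of the 2607 (44.5%, 42.6 to 46.4) on 15.8% of the genome. Chromosome 15 had 379 regions, or 3.64 per Mb, chromosome 10 had 347 (2.66 per Mb) and chromosome 1 had 434 (2.22 per Mb), followed by chromosome 19 with 1.48, chromosome 5 with 1.29, chromosome 2 with 1.27, chromosome 11 with 1.18 and chromosome 6 with 1.04 per Mb. The lowest autosome was chromosome 14 with 25 regions, 0.2 per Mb, so that the autosomes differed 18.2-fold. Chromosome X had 5 regions (0.0292 per Mb), and none was on chromosome Y or the mitochondrial genome.

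The other sets shared this order to different degrees. The same 3 chromosomes held 41.9% of the proliferating-only regions (39.7 to 44.1) but 26.6% of the differentiating peaks with a counterpart (24.5 to 28.7) and 33.8% of all differentiating peaks. Over autosomes the density of proliferating-only regions varied 23.7-fold and that of peaks with a counterpart 4.06-fold. Across 20 chromosomes of 1 cell line, Spearman's rho between the densities of the regions and of the proliferating-only regions, which come from different libraries, was 0.971. It was 0.988 between the regions and all differentiating peaks, which come from the same library and include them. Among wide distal differentiating peaks, the share without a counterpart was 70.8% on chromosomes 1, 10 and 15 (68.5 to 73) and 52.2% on the other chromosomes (50.3 to 54.1), from 72% on chromosome 10 to 30.1% on chromosome 14 among the autosomes.

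Regions on the 3 dense chromosomes resembled the rest in strength and width. Their median fold enrichment was 2.97 against 3.02 elsewhere, median −log10 q 1.61 against 1.64 and median width 1378 against 1373 bp. They lay farther from start sites, with a median distance of 61996 bp against 47567 bp, and had a median GC content of 43% against 45%. In proliferating-only regions the corresponding distances were 69526 and 47964 bp.

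**Figure D4:**
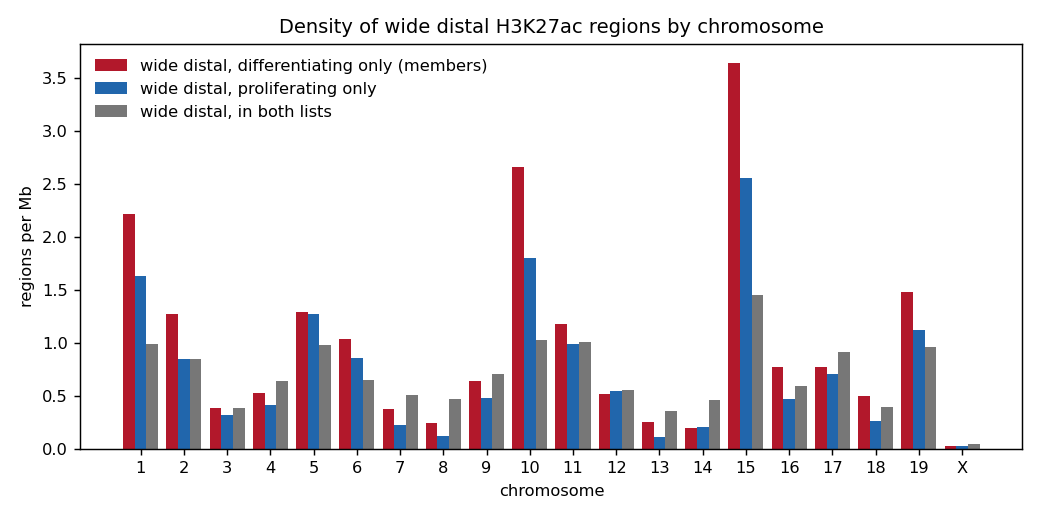
Regions per Mb on chromosomes 1 to 19 and X for differentiating-only regions (red), proliferating-only regions (blue) and differentiating peaks with a counterpart (grey). Chromosome 15 is highest in all 3 sets, with 3.64, 2.56 and 1.45 regions per Mb, and the red and blue bars vary far more between chromosomes than the grey bars.

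At a finer scale, the genome was divided into 256 bins of 10 Mb. A bin held a median of 6 regions, 24 bins held none, and the fullest, at 90 to 100 Mb of chromosome 15, held 66 regions and 46 proliferating-only regions. Spearman's rho between the numbers of the 2 kinds of region over the 256 bins, which share a genome and cell line, was 0.834. Besides 6 of the 7 fullest bins on chromosomes 1 and 15, the bin at 30 to 40 Mb of chromosome 5 was among them, with 53 regions and 47 proliferating-only regions.

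Host genes were numerous and long. A total of 1152 of 21924 protein-coding gene symbols (5.25%) hosted a region, and 2209 (10.1%) hosted or were nearest to a region. For the proliferating-only regions the latter share was 7.83%. Of the hosts 961 held 1 region, 133 held 2 and 58 held 3 or more. Hosts had a median length of 93.3 kb, against 17.4 kb for all protein-coding genes. Of the 5480 longest genes, those above 45.1 kb, 15.1% were hosts, and of the 5481 shortest, up to 6.51 kb, 0.237%. A promoter peak in the differentiating list was present at 38.9% of the hosts (36.1 to 41.8) and at 27.7% of all protein-coding genes (27.1 to 28.3), and one in the proliferating list at 35.2% and 23.7%. Of the hosts 594 had no promoter peak in either state, 153 only in the differentiating list and 110 only in the proliferating list. This split was not computed for all protein-coding genes, of which 6075 had a promoter peak in the differentiating list and 5201 in the proliferating list. There were 229 hosts that also hosted a proliferating-only region, 19.9% of the hosts and 28% of the 817 hosts of such regions.

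Ctnna3, which encodes an alpha-catenin of cell junctions, hosted the most regions, 9 over 1574 kb. Its 9 intronic regions had fold enrichments from 2.74 to 3.35, and the closest proliferating peak was 114 bp from 1 of them and 124405 bp from another. The gene contained 50 differentiating and 31 proliferating peaks in all, of which 2 were wide distal proliferating-only regions. Another 9 genes hosted 5 regions each: Asap1, Cdh18, Eya4, Fam19a5, Kcnq5, Pkhd1, Pkp4, Rims1 and Stk32b. Per length, Pkp4, a desmosome-associated armadillo protein gene, had 2.58 regions per 100 kb, Fam19a5, a secreted neural protein gene, 2.33, and Eya4, a transcriptional coactivator gene, 2.02, against 0.572 for Ctnna3 and 0.541 for the cadherin gene Cdh18. Eya4, Kcnq5, which encodes a potassium channel, and Pkp4 hosted no proliferating-only region, whereas Cdh18 hosted 5 of them beside its 5 regions. Proliferating peaks of any kind numbered 8 in Eya4, 10 in Kcnq5, 4 in Pkp4 and 29 in Cdh18. The 5 regions of Asap1, which encodes a GTPase-activating protein of ARF proteins, had fold enrichments from 2.35 to 2.55, and a proliferating peak lay 1561 to 8948 bp from each.

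By nearest gene, some genes had many regions, and the stretches without coding genes beside them were not measured. These genes were picked after their counts had been seen. The individually listed regions of Cdh6, Fam19a5 and Cdh18 lay on chromosome 15, the densest at 3.64 regions per Mb. Regions nearest to the other genes of this paragraph were not listed one by one. Their chromosomes are not given here and may be the same. The part of chromosome density in the counts was not tested. Intergenic regions were 8 of 8 at Khdrbs3, 7 of 7 at Rab28 and 6 of 7 at Tbc1d22a. They were 6 of 11 at Fam19a5, 4 of 11 at Myc, 4 of 7 at Cited2 and 2 of 7 at Cdh18. Cdh9 was nearest to 16 regions, of which 14 were intergenic and the farthest lay 1664 kb from its start, and Cdh6 to 12 regions, 11 of them intergenic. Both encode classical cadherins. Around Cdh9 and Cdh6 there were 7 and 4 proliferating-only regions. Fam19a5 was nearest to 11 regions and 11 proliferating-only regions. Myc, the growth-promoting transcription factor gene, was nearest to 11 regions at 179 to 638 kb from its start, beside 13 proliferating-only regions, and had a promoter peak in both lists. Khdrbs3 was nearest to 8 regions against 7. The 4 genes nearest to 7 regions each differed in their proliferating-only regions, with 11 at Rab28, 9 at Cdh18, 3 at Tbc1d22a and 1 at Cited2, a transcriptional coregulator gene.

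Some regions stood close together. In all 274 (10.5%) belonged to a group of 3 within 100 kb, a count that was not made for the other sets. Another peak of the same list, of any kind, lay within 10 kb of 34.4% of the regions. This share was 35.9% for the proliferating-only regions, 41.4% for the peaks with a counterpart and 32.3% for all differentiating peaks. The tightest group spanned 17.8 kb at chr15:97743711-97761555 in Rapgef3, which encodes a cAMP-activated exchange factor for RAP proteins, with fold enrichments of 2.73, 2.49 and 2.79. The next spanned 17.9 kb at chr15:87720794-87738741 in an intron of Fam19a5 (2.86, 2.91 and 2.82), and the last 19.4 kb at chr5:16954799-16974214, between genes and nearest to Gm28710 (2.56, 2.64 and 2.59). In each group at least 1 region was within 1 kb of a proliferating peak, at 459, 997 and 734 bp.

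Genes of the oligodendrocyte lineage were described by lists of known members. Of 28 myelin genes 6 hosted or were nearest to a region (21.4%), beside 10.1% of all protein-coding genes, and 2 had a proliferating-only region. The corresponding counts were 14 and 11 of 41 lineage transcription factors, 7 and 4 of 18 precursor genes, 6 and 4 of 30 growth factor receptor and feedback genes, 3 and 3 of 28 cholesterol and lipid synthesis genes, and 11 and 10 of 30 genes of the cytoskeleton, adhesion and process growth. Among other cell types, 2 of 8 astrocyte genes, 3 of 11 neuronal genes and 0 of 8 microglial genes had a region, with 2, 1 and 0 for the proliferating-only regions. Of 11 genes named in connection with the study, among them the 5 Padi genes, 3 had a region and 1 a proliferating-only region. The lists together accounted for 87 of the 2607 regions. Gene length differed between the lists, with a median of 257 kb in the cytoskeleton and adhesion list and 22.7 kb in the myelin list, and its part in these shares was not tested.

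**Figure D5:**
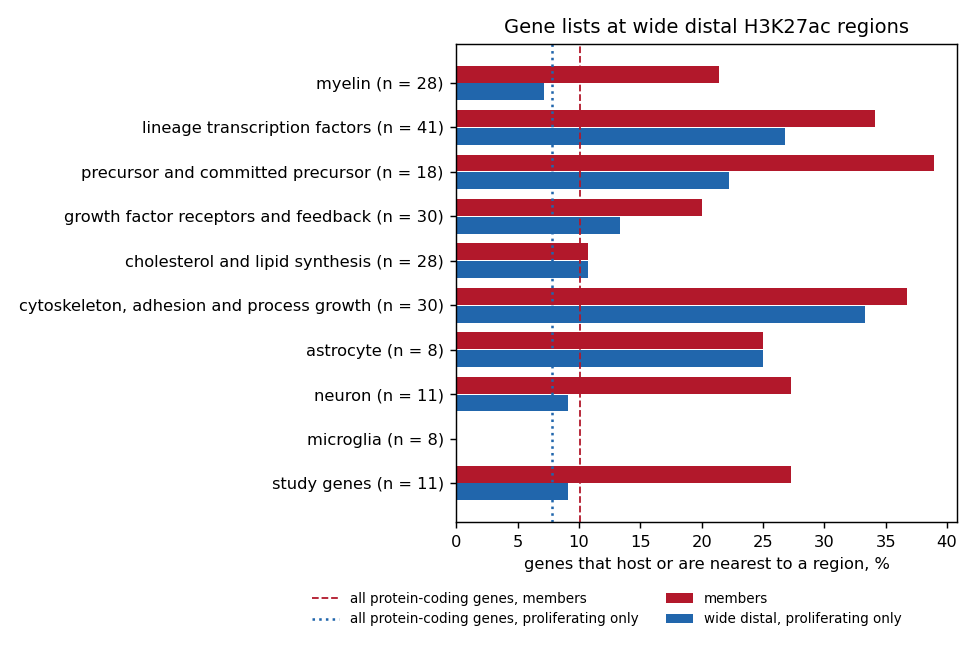
Percent of the genes of each list that host or are nearest to a wide distal differentiating-only region (red) or proliferating-only region (blue), with the same share over all protein-coding genes as a dashed red line (10.1%) and a dotted blue line (7.83%). Red bars range from 0 of 8 microglial genes to 38.9% of 18 precursor genes and the blue bar is as high as the red one in the lipid synthesis and astrocyte lists.

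The 7 regions at myelin genes lay at Cnp, Mbp, Ermn, Cntn2, Bcas1 and Nfasc. The strongest, chr11:100594369-100595748, was in an intron of Dnajc7 with Cnp, the gene of a myelin phosphodiesterase, as its nearest start at 20155 bp, and had a fold enrichment of 3.34 and a −log10 q of 4.37. A proliferating peak was 2056 bp away. In Mbp, which encodes myelin basic protein, an intronic region at chr18:82537600-82538857 lay 63083 bp downstream of the annotated gene start (3.27). Ermn, a cytoskeletal gene of mature oligodendrocytes, had a region 21511 bp upstream at chr2:58073773-58074976 (3.27), of which 71.1% of the bases were repeat-masked. Nfasc, which encodes an adhesion protein of the node of Ranvier and paranode, hosted 2 regions (3.12 and 2.98) and had a promoter peak only in the differentiating list. It hosted no proliferating-only region but held 7 proliferating peaks of any kind. The stronger Nfasc region and the region in Cntn2 (2.88), an axonal adhesion gene, fell within promoters when all transcript starts were counted. Bcas1, a gene of newly forming oligodendrocytes, had a region 91748 bp away (3.07).

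Lineage transcription factors accounted for 19 regions with fold enrichments from 2.78 to 3.56. The region of Myrf and those of Zeb2 were picked after their values had been seen. Myrf, the factor that switches on myelin genes, had 2 peaks within the gene and a promoter peak in differentiating cells, and neither in proliferating cells. Its intronic region, chr19:10232092-10233406, lay 7999 bp downstream of the start with a fold enrichment of 3.01 and a −log10 q of 2.09, and the closest proliferating peak was 10750 bp away. The 2 highest were 821328 bp upstream of Sox9 at chr11:111960184-111961608 (3.56) and 13060 bp downstream of the Sox2 start at chr3:34662730-34664200 (3.54), both genes of SOX factors of neural progenitors. The Sox2 region lay in a noncoding gene and fell within a promoter when genes of every type were counted. Tcf7l2, a Wnt effector of early differentiation, had a region in its own intron (3.11) and another 179393 bp upstream in Vti1a (3.52), and Sox6, which restrains differentiation in precursors, an intronic region (3.5). Tcf4, a partner of lineage helix-loop-helix factors, had an intronic region (3.21) and another upstream (3.12). Sox9 was nearest to 2 regions and 2 proliferating-only regions, and Tcf7l2 to 2 and 1. Zeb2 had 3 regions at 1236 to 1254 kb upstream, with fold enrichments of 2.85, 3.1 and 3.17.

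Precursor genes had 15 regions. Pdgfra, the PDGF receptor that marks precursors, was nearest to 3 regions and to no proliferating-only region, and 2 proliferating peaks lay within the gene. The 3 regions were 4118, 62156 and 71721 bp downstream of the Pdgfra start, with fold enrichments of 3.3, 3.19 and 3.07. The closest of them, chr5:75155783-75157037, touched an exon, lay 728 bp from a proliferating peak, and was no longer distal when the starts of all transcripts or of genes of every type counted as promoters. The Cspg4 region, chr9:56899813-56901794, touched a noncoding or untranslated exon of the gene of the NG2 proteoglycan (2.94), lay 12648 bp from a proliferating peak and fell within a promoter when genes of every type were counted. Lhfpl3, which is transcribed in precursors, hosted 4 regions with fold enrichments from 2.13 to 2.33 beside 6 proliferating-only regions, and Itpr2, a calcium channel gene of committed precursors, hosted 3 of each. Tns3 hosted 2 regions (2.79 and 2.68).

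Growth factor pathway genes had 8 regions, of which 3 were nearest to Erbb4, a neuregulin receptor gene, with fold enrichments of 3.05, 2.89 and 2.84. The strongest, chr7:133062052-133063275 (3.23), lay in introns of both Ctbp2 and Fgfr2, a fibroblast growth factor receptor gene whose model in the annotation used spans 2961 kb. It was followed by Spred2, an inhibitor of Ras signalling (3.08). The region in Akt1, which encodes a kinase downstream of growth factor receptors, lay 149 bp from a proliferating peak (3.01). At lipid genes the Acsl3 region above was the strongest of 4, and 2 regions lay 23259 and 17027 bp upstream of Sqle, the squalene epoxidase gene of cholesterol synthesis (2.92 and 2.89).

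Adhesion and guidance genes had 21 regions, the most of any list. The highest were in Dscam (4.42), upstream of Plxna2, a semaphorin co-receptor gene (3.56), in Dscam again (3.5), in Dock9, which encodes a guanine nucleotide exchange factor (3.42), and in Ntn1, the netrin gene (3.32). Plxna2 was nearest to this 1 region and to 3 proliferating-only regions, and Robo2 to 1 and 2. Robo1, a receptor for SLIT proteins, was nearest to 4 regions with fold enrichments from 2.88 to 3.1 and to no proliferating-only region. Ntn1 was nearest to 3 (3.32, 2.99 and 2.58), also without a proliferating-only region. Proliferating peaks of any kind numbered 9 within Robo1 and 7 within Ntn1. Only 7.83% of all protein-coding genes hosted or were nearest to a proliferating-only region. Dscam had another region 38907 bp upstream (3.02), and hosted 1 proliferating-only region. Ank3, which encodes the ankyrin of nodes of Ranvier, hosted 2 regions (3.29 and 2.94) and 1 proliferating-only region.

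Of the marker lists for other cells, the regions at astrocyte genes were 3 nearest to Gja1, the connexin 43 gene, and 2 nearest to Slc1a3, the glutamate transporter gene, all outside these genes and with fold enrichments from 2.89 to 3.22. At neuronal genes, Gad1, the glutamate decarboxylase gene, hosted 2 (3.28 and 2.94), Syt1 hosted 1 and had 1 upstream, and Rbfox3 had 1 upstream. Among the genes linked to the study, Padi3 hosted a region of 2263 bp (3.17), a region lay 6024 bp upstream of Padi1 (3.17), and Ezh1, a histone methyltransferase gene, hosted a region of 1705 bp (3.01). Padi2 neither hosted nor was nearest to any region.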

How the data were processed

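Deposited lists of broad H3K27ac peaks from proliferating and differentiating Oli-neu cells, 1 library each, were used. Per the labels and the study's methods, the authors mapped reads to GRCm38/mm10, kept uniquely mapped reads, removed duplicates and called broad peaks. The submitters' processing notes name Bowtie2 2.1.0, SAMtools, MACS2 2.0.10 and bedtools. Each line of the deposited lists gave a position and a text cell that was read as the caller's ratio over background (fold enrichment) followed by −log10 of the p-value and of the q-value, the usual order of MACS2 broad lists. An input library is not named in the sources used here, and the lists hold no read counts, so the depth per region is unknown. The labels give 1 day of differentiation, and the study's culture methods for this line give a longer time.

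Regions were found with Python 3.11.15, numpy 2.4.6, pandas 2.3.3 and pysam 0.24.0: width was end minus start, 1 shared base counted as overlap, and promoters, hosts and nearest starts came from 21951 protein-coding genes of GENCODE M21, 1 start per gene. Coordinates are printed 1-based. Composition and motifs were read from the RefSeq GRCm38 genome, and repeats from its soft masking. Intervals are 95% Clopper-Pearson (scipy 1.17.1), and a count of 0 was given the limit of 3 counts. No test was made, since each state has 1 library. The steps were tested on 2000 simulated regions and recovered all 420 planted ones, with 0 false. Named regions were the 10 of highest fold enrichment, the 5 widest, 3 on each side of the width threshold, the 3 genes hosting most regions (ties in alphabetical order), the 3 tightest groups and up to 5 of highest fold enrichment per gene list. Further regions at listed genes were picked after their values had been seen. Sequences of regions on chromosome 18 were not used. Regions, lists and motifs were chosen with earlier results of these data known. Of 215 listed gene symbols 213 matched.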

Additional observations from a re-analysis of the deposited data

How the results depend on the processing

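Each of 6 values was recomputed under 11 alternatives, and 47 of the 66 recomputed values stayed within 1.5 times of a count or within the 95% interval of a share or median. The number of regions was 4720 at a width of at least 1000 bp, 831 at 1500 bp and 8 with −log10 q of at least 5, and the number of genes hosting or nearest to one was 3412, 853 and 9. The share within a gene was 56% at 1500 bp, 62.5% with −log10 q of at least 5, 50.1% with the starts of all transcripts as promoters and 56.2% for regions with under 50% repeat-masked bases. The share on chromosomes 1, 10 and 15 was 41.5% when a counterpart had to share 0.5 of both peaks and 25% (of 8 regions) with −log10 q of at least 5. The median distance to a start was 48445 bp at 1500 bp, 48764 bp with the shared fraction of 0.5, 34174 bp with −log10 q of at least 5 and 58082 bp with the starts of all transcripts, and the median fold enrichment was 2.96 at 1500 bp, 4.44 with −log10 q of at least 5 and 3.04 with q of at most 0.05 in both lists. A larger or smaller count follows from the width and q limits themselves, and the cause of the other shifts was not tested. Of the 87 regions at listed genes, 80 remained distal with all transcript starts, 81 with genes of every type, 81 when a proliferating peak within 1000 bp counted as a counterpart, 27 at a width of at least 1500 bp, where those of Mbp, Cnp, Myrf and Pdgfra were lost, and 1 with −log10 q of at least 5. Under 50% of the bases were repeat-masked in 80 of the 87, and the Ermn region was among those lost by this limit. No paired analysis was possible because each H3K27ac state has 1 library and no test was made.

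The lists hold no read counts, so precision per region cannot be given, and absence from the proliferating list says only that no peak passed the caller's threshold there. With 1 library per state, no value has a replicate error.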
